A study of Mus musculus with 3 samples.

Results

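C-type lectin receptors are surface proteins with which macrophages bind sugars and lipids of fungi, mycobacteria and damaged cells. The values here are those of 10 such genes, namely Clec7a, Clec4d, Clec4e, Clec4n, Clec4a1, Clec4a3, Clec5a, Clec10a, Clec12a and Mrc1, taken by symbol out of 55536 annotated genes. The cells were bone-marrow-derived macrophages, which are primary macrophages grown from bone marrow, of C57BL/6J mice. All of them had been given Lipid A, the part of bacterial lipopolysaccharide that Toll-like receptor 4 recognises, at 100 ng/ml for 30 min. The cytosolic fraction was taken and its RNA sequenced after ribosomal RNA had been depleted. There is 1 group of 3 libraries, replicates 1, 2 and 3, with 23403511, 50435192 and 35785886 counts on genes. The labels call them biological replicates but record the same donor for each, and record neither age nor sex. Errors (SD, n = 3 throughout) and p-values thus describe the scatter of these 3 libraries only, and part of it may be technical. Untreated cells and the nuclear fraction were not analysed here, so no gene is called induced or depleted.

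Several of these receptors activate the cell through the kinase Syk. Dectin-1 (Clec7a) carries its own tyrosine-based motif, whereas Mincle (Clec4e), MCL (Clec4d) and dectin-2 (Clec4n) act through the adaptor encoded by Fcer1g, and Clec5a acts through the adaptor encoded by Tyrobp. Clec12a carries an inhibitory motif that recruits phosphatases, and the mannose receptor (Mrc1) and the galactose-type lectin Clec10a take up glycoproteins by endocytosis.

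For 5 members, some transcripts are printed here at exon boundaries where they differ. The transcript shares given further on were estimated over whole transcripts, not from these stretches alone. The point where Clec5a-203 differs, and those of Clec4a3 and Clec10a, are not printed. Each line is 50 bases of the spliced transcript, 25 before and 25 after the point where the transcripts of a gene part, 5′ to 3′ on the gene's own strand, from the GENCODE M21 transcripts (mm10). For Clec7a, on the minus strand, this point is the end of exon 2 in Clec7a-202 and Clec7a-204. Capitals mark what each long form carries there in place of the sequence of the short form Clec7a-202; in Clec7a-201 the first 10 capitals still belong to its longer exon 2.
Clec7a-201: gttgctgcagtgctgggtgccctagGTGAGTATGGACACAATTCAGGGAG
Clec7a-204: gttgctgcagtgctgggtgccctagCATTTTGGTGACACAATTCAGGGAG
Clec7a-202: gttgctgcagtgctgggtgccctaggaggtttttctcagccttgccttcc
For Clec4e, also on the minus strand, the points are the ends of exons 2 and 3, and capitals mark intron that is kept.
Clec4e-201 exon 2 end: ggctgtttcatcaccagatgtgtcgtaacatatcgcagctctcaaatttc
Clec4e-206 exon 2 end: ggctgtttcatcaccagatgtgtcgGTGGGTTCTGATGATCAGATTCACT
Clec4e-201 exon 3 end: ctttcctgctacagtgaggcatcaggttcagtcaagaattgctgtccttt
Clec4e-203 exon 3 end: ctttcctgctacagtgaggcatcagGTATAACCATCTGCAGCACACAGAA
For Clec4d and Clec4n on the plus strand and Clec5a on the minus strand, capitals mark exon that the second transcript of each pair leaves out.
Clec4d-201: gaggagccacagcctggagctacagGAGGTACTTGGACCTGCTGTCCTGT
Clec4d-203: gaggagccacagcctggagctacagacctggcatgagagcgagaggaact
Clec4n-201: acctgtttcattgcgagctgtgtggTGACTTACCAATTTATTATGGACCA
Clec4n-202: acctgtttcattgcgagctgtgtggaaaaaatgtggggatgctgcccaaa
Clec5a-202: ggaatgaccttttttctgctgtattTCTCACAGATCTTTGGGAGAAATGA
Clec5a-201: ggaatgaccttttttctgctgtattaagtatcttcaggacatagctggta

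All 10 receptor genes were present above 1 TPM, and 9 reached 10 TPM in every library, with all transcripts of a gene included, coding or not. TPM, a transcript unit, divides counts by transcript length and scales each library to the same total. For comparison, 17.9% of the 22097 nuclear protein-coding genes reached that level on average. A mean of 100 TPM was reached by 3 members, Clec4d, Clec7a and Mrc1, against 1.91% of those genes. The median over the members was 47.6 TPM, and the median over the 9409 nuclear protein-coding genes at 1 TPM or more was 7.80 TPM. Nuclear protein-coding genes held 22.3%, 34.4% and 24.3% of the TPM in replicates 1, 2 and 3. TPM of most members was therefore highest in replicate 2, and libraries are compared further on by CPM, a TMM-scaled count unit that is not divided by length.

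Among the activating receptors, Clec4d (chr6:123262111-123275265) had the highest level, with 151, 237 and 150 TPM in replicates 1, 2 and 3 (180 ± 50.0). Its replicates 1 and 3 were nearly equal and replicate 2 stood above them. Clec7a (chr6:129461591-129472779) had 147, 206 and 132 TPM (162 ± 39.1), again with replicate 2 highest. These were the genes of rank 218 and 241 among the nuclear protein-coding genes. Clec4n (chr6:123229843-123247021), the dectin-2 gene, had 79.9, 108 and 62.0 TPM (83.2 ± 23.0). Its lowest library was replicate 3.

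Clec4e (chr6:123281789-123289870), whose product recognises mycobacterial glycolipids and is known as a partner of the Clec4d product, was 1 of the 3 lowest members. It had 21.3, 11.5 and 13.1 TPM (15.3 ± 5.26). It was the only member whose TPM was lowest in replicate 2. Clec5a (chr6:40574894-40585821), a receptor known for binding flaviviruses, had 7.04, 12.6 and 5.07 TPM (8.24 ± 3.92). It was the lowest member and the only one under 10 TPM on average, with rank 4519.

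Of the receptor with an inhibitory motif, Clec12a (chr6:129342691-129365303), there were 40.5, 56.8 and 46.7 TPM (48.0 ± 8.19). Both members of the Clec4a (DCIR) family lay close to it. Clec4a3 (chr6:122952515-122969875) had 47.6, 53.6 and 40.4 TPM (47.2 ± 6.61), and Clec4a1 (chr6:122921848-122934619) had 45.7, 52.7 and 36.7 TPM (45.0 ± 8.06). The ranges of these 3 genes over the libraries overlapped almost entirely.

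Among the endocytic receptors, Mrc1 (chr2:14229392-14332057) was the third gene in order, with 82.5, 137 and 109 TPM (110 ± 27.4). Clec10a (chr11:70156197-70170834) was the ninth, with 11.0, 13.5 and 12.6 TPM (12.4 ± 1.25). The libraries of Clec10a lay closer together in TPM than those of any other member. Mrc1 and Clec10a are the only members outside chromosome 6.

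**Figure D1:**
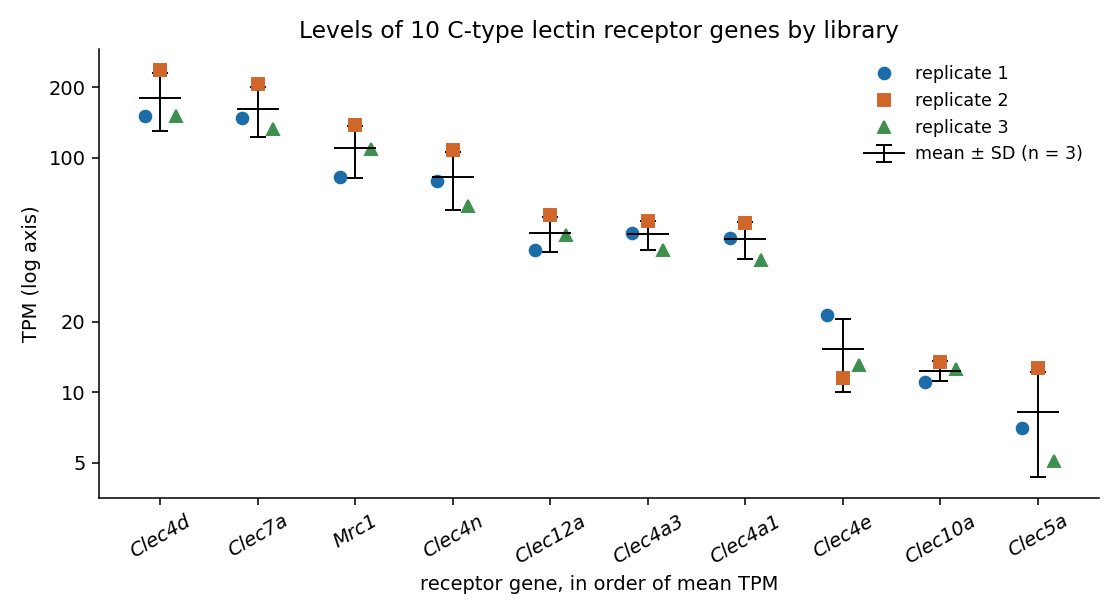
TPM on a log axis of the 10 receptor genes in each of the 3 libraries (points) with mean and SD (bars). Clec4d, Clec7a and Mrc1 lie above 100 TPM on average and Clec5a under 10, and Clec4e is the gene whose replicate 2 is lowest.

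The order of the levels was set within libraries as the difference of log2(TPM + 1) between each gene and the next lower one. For 7 of the 9 neighbours the difference had the same sign in every library. For each of those 7, a two-sided exact permutation test that flips signs returned p = 0.25, the lowest possible with 3 libraries, or 0.321 after Benjamini-Hochberg adjustment over the 9 pairs. The widest step was from Clec4a1 down to Clec4e, at 1.53 ± 0.53 on the log2 scale. It separates 7 genes of 45.0 TPM or more from 3 of 15.3 TPM or less. The step between Clec4d and Clec7a was 0.14 ± 0.09, and that from Clec4a3 to Clec4a1 0.07 ± 0.06. Clec12a and Clec4a3 differed by 0.02 ± 0.22 and Clec4e and Clec10a by 0.24 ± 0.58, both smaller than their spread. Without replicate 1 the latter difference was -0.08. Without replicate 2 and without replicate 3, that of Clec12a and Clec4a3 was -0.01 and -0.07. The order within these pairs therefore rests on single libraries.

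Of the 10 genes, 8 lie on chromosome 6, and 7 of them stand in 2 gene groups with other lectin genes of very different level. In the group that ends with Clec4e, the genes in chromosomal order are Clec4a1, Clec4a3, Clec4a4, Clec4b1, Clec4a2, Clec4b2, Clec4n, Clec4d and Clec4e. Clec4a4, next to Clec4a3, had 0.190 ± 0.0985 TPM, and Clec4b2, next to Clec4n, had 0.0533 ± 0.0306 TPM. Clec4a2, which encodes a receptor with an inhibitory motif, had 13.5 ± 0.557 TPM. In the other group Clec12a and Clec7a stand at the ends. The 4 genes between them (Clec12b, Clec1b, Clec9a and Clec1a) had means from 0.0300 to 0.373 TPM. In the plot of levels in gene order Clec4e lies above Clec4a2 only through replicate 1. Clec4a2 had 12.9, 14.0 and 13.6 TPM, more than Clec4e in replicates 2 and 3, and the mean of Clec4e without replicate 1 was 12.3 TPM.

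**Figure D2:**
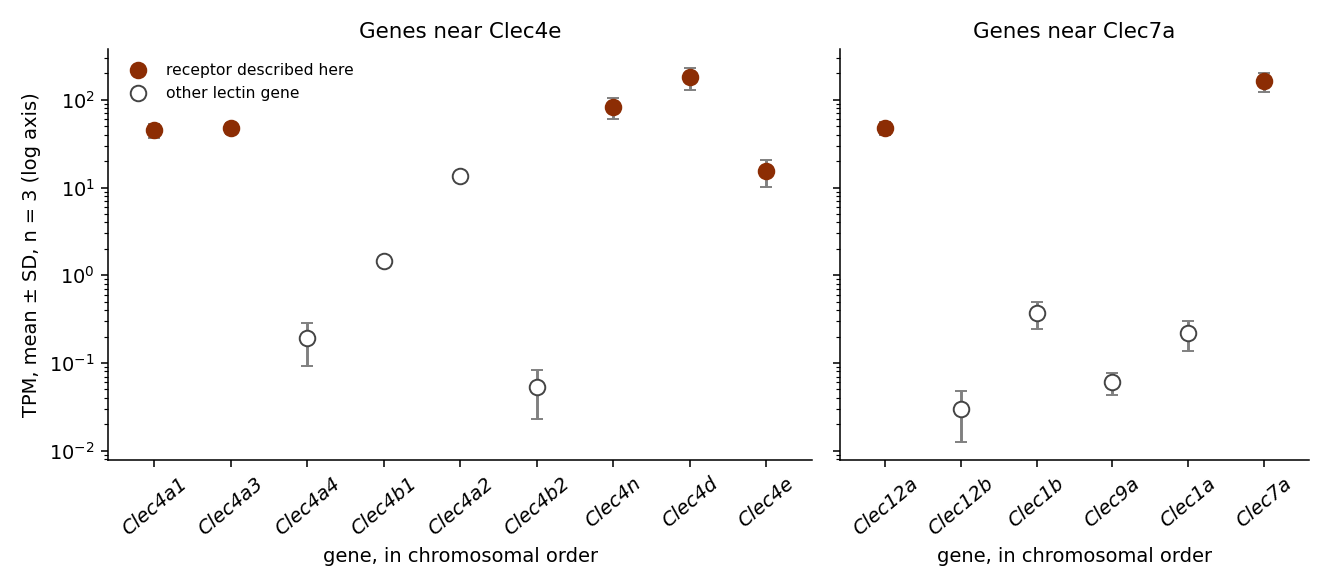
Mean TPM ± SD (log axis, n = 3) of the lectin genes in chromosomal order near Clec4e (left) and near Clec7a (right). Filled points are the receptors described here and open points the other lectin genes; Clec4e (15.3 TPM) and Clec4a2 (13.5 TPM) overlap within their libraries, and the remaining open points lie at 1.44 TPM or less.

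By counts, the libraries agreed within 1.5-fold for 8 of the 10 members, near the 73.2% of all genes tested. The exceptions were Clec4e and Clec5a. The median range over the members was 1.32-fold. Over all genes tested it was 1.27-fold, and over genes with at least the mean count of the lowest member 1.18-fold. Clec4e had 118, 37.4 and 63.8 CPM in replicates 1, 2 and 3, a 3.15-fold range. Replicate 1 was highest and replicate 2 lowest, with replicate 3 near the mean of the gene on the log2 scale (deviations of 0.85, -0.81 and -0.04). Without replicate 1 the range was 1.71-fold, and without replicate 2 it was 1.84-fold. Clec5a had 23.9, 25.4 and 15.3 CPM, a 1.66-fold range in which replicate 3 stood under the other two. Without replicate 3 its range was 1.06-fold.

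The remaining members ranged from 1.13-fold to 1.41-fold (Clec4n), where the median of the 5739 genes with at least 817 counts on average, the mean count of the lowest member, was 1.18-fold. Clec12a had 190, 176 and 198 CPM, the narrowest range of the members at 1.13-fold. Mrc1 had 865, 971 and 1038 CPM, with replicate 1 lowest. Clec7a had 481, 414 and 377 CPM and Clec4n 159, 139 and 113 CPM, both with replicate 1 highest and replicate 3 lowest. Clec4d had 310, 322 and 278 CPM. Clec4a3 had 99.6, 73.7 and 76.6 CPM and Clec4a1 126, 96.0 and 91.5 CPM, and in both genes replicate 1 stood above a close pair. Clec10a had 28.8, 22.9 and 29.7 CPM, with replicate 2 under the others.

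Whether the libraries differed by more than counting error was tested gene by gene against Poisson sampling (chi-square test of dispersion, Benjamini-Hochberg adjustment over 13237 genes). All 10 members passed at an adjusted p of 0.05, where 66.8% of all genes tested passed. Of the 5739 genes with at least 817 counts, 84.8% passed, so a pass at this depth is common. The chi-square was 1664 for Clec4e and from 44.5 (Clec10a) to 422 (Mrc1) for the others. Calls of 5 members rest on 1 library: Clec4a1 and Clec4a3 lost theirs without replicate 1 (adjusted p = 0.0813 and 0.153), Clec10a and Clec12a without replicate 2 (0.695 and 0.1002), and Clec5a without replicate 3 (0.348).

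The biological coefficient of variation is edgeR's estimate of the spread beyond counting error, drawn for each gene toward that of other genes. It is thus not the spread of 1 gene alone. By CPM, Clec12a had 188 ± 11.2 and Clec4e 73.0 ± 40.9. The coefficient ran from 11.2% (Clec12a) to 20.8% (Clec5a) in 9 members and was 35.7% in Clec4e. The median over the members was 14.5%. Over all genes tested it was 17.3%, and over the genes of at least 817 counts 12.3%. Clec4e lay above 77.5% of the genes tested and Clec5a above 58.7%.

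The members did not share 1 highest or lowest library. CPM was highest in replicate 1 for 5 members, against 29.8% of genes tested, in replicate 2 for 2 members, against 39%, and in replicate 3 for 3 members, against 31.3%. It was lowest in replicate 2 for 4 members, Clec4e, Clec10a, Clec12a and Clec4a3, against 37.6% of genes. CPM was lowest in replicate 3 for 5 members and in replicate 1 for Mrc1, for which no share over all genes was computed. The median deviation over the members was 0.19, -0.06 and -0.12 in replicates 1, 2 and 3, and over all genes tested it was 0.00 in each.

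**Figure D3:**
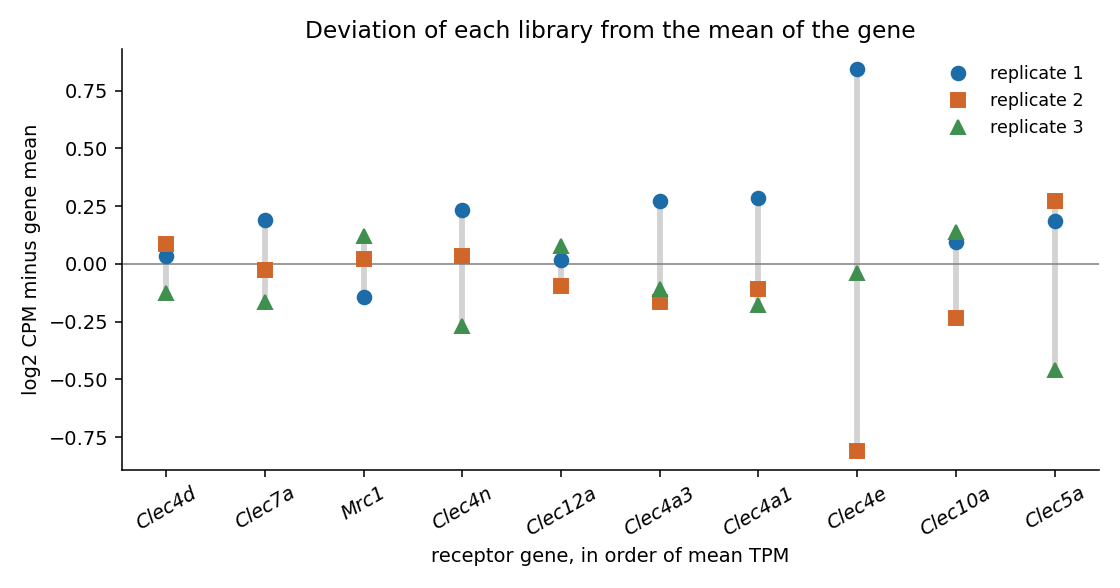
Deviation of log2 CPM in each library from the mean of the gene, for the 10 members in order of mean TPM; grey lines span the 3 libraries. Clec4e spans from -0.81 (replicate 2) to 0.85 (replicate 1), and Clec5a reaches -0.46 in replicate 3.

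Replicate 1, the library in which Clec4e was highest, stood apart in other genes too. The 7 stromal marker genes, such as Col1a1, summed to 25.9 TPM there and to 0.0400 and 0.150 TPM in replicates 2 and 3, where Col3a1, Lum and Pdgfra had 0 counts. Of 8 early response genes, 7 had their highest CPM in replicate 1, among them Zfp36 and Nfkbia, against 29.8% of all genes tested. The exception was Fos, which was lowest there, at 987, 1368 and 1707 CPM. The part of either in the values of Clec4e was not tested. Macrophage markers fitted the label: 9 of 10 had 10 TPM or more, led by Lyz2, Cd68 and Csf1r, and only Marco was under 1 TPM. Dendritic cell markers summed to 2.28, 2.87 and 2.91 TPM, with only Batf3 at 1 TPM or more. Neutrophil markers summed to 27.8, 63.3 and 47.6 TPM, led by S100a9, Csf3r and S100a8, and Ly6g had 1 count in all libraries together. Monocyte markers summed to 9.53, 16.3 and 9.00 TPM, with Plac8, Ccr2 and Ly6c2 at 1 TPM or more. In such bulk samples, fewer cells of a type and less RNA per cell cannot be told apart.

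A large share of the Clec4e counts lay on transcripts that keep an intron. Transcripts annotated as retained-intron held 55.9%, 31.3% and 60.6% of the gene's counts in replicates 1, 2 and 3 (49.3 ± 15.7%). The 95% Wilson intervals were 54.0 to 57.7%, 29.4 to 33.4% and 58.5 to 62.6%. They cover counting error only, not the assignment of reads to transcripts. None of them overlapped, and replicate 2 lay farthest from the others. Of the 6101 genes with such an annotated transcript and at least 100 counts on average, 57 had a higher mean share, and the median gene had 0.880%. The second transcript table gave 67.9%, 48.1% and 72.4%, with the same library lowest.

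The annotated transcripts of this kind are Clec4e-206, which keeps intron 2 (chr6:123286519-123288893, 2375 bases), Clec4e-203, which keeps intron 3 (chr6:123286360-123286431, 72 bases), and Clec4e-205, which keeps both. As the exon 2 end of Clec4e-206 shows, the sequence runs straight on into intron, and the reading frame stops after 47 codons, as does that of Clec4e-205. That of Clec4e-203 stops after 83 codons, whereas the spliced Clec4e-201 has 214. Clec4e-201 held 50.5%, 70.1% and 43.5% of the gene's TPM, so replicate 2, where the gene was lowest by counts, had the largest spliced share. The second table gave lower shares for Clec4e-201, 30.0%, 45.0% and 22.6% (32.5 ± 11.4%), with replicate 2 again highest.

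Counts on the retained-intron transcripts of Clec4e were 65.7, 11.7 and 38.7 CPM, a 5.61-fold range. Those on its other transcripts were 51.9, 25.7 and 25.2 CPM, a 2.06-fold range in which replicates 2 and 3 were nearly equal. The difference between replicates 2 and 3 lay in the retained-intron transcripts, while replicate 1 was highest in both kinds.

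Of the other members, 5 have an annotated retained-intron transcript, and in each its share of the gene's counts was far under that of Clec4e. In Clec12a it was 3.27%, 0.773% and 2.62%, in Clec4d 1.48%, 0.393% and 1.37%, and in Mrc1 0.806%, 0.185% and 0.309%. Clec7a and Clec10a were at 0.216% or less in each library. The second table gave 5.28%, 1.38% and 4.15% for Clec12a and 3.68%, 1.01% and 4.29% for Clec4d. The share was lowest in replicate 2 for 5 of the 6 genes, all but Clec10a, against 53.9% of the 6101 genes. In the second table Clec7a, at 0.278%, 0.479% and 0.322%, was highest in replicate 2, which leaves 4 of the 6. Over all nuclear protein-coding genes, retained-intron transcripts held 1.75%, 1.44% and 1.87% of counts. The nuclear RNAs Malat1, at 3877, 1259 and 6509 CPM, and Neat1, at 704, 149 and 860 CPM, were lowest in the same library. The part of nuclear RNA in the Clec4e share was not tested.

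**Figure D4:**
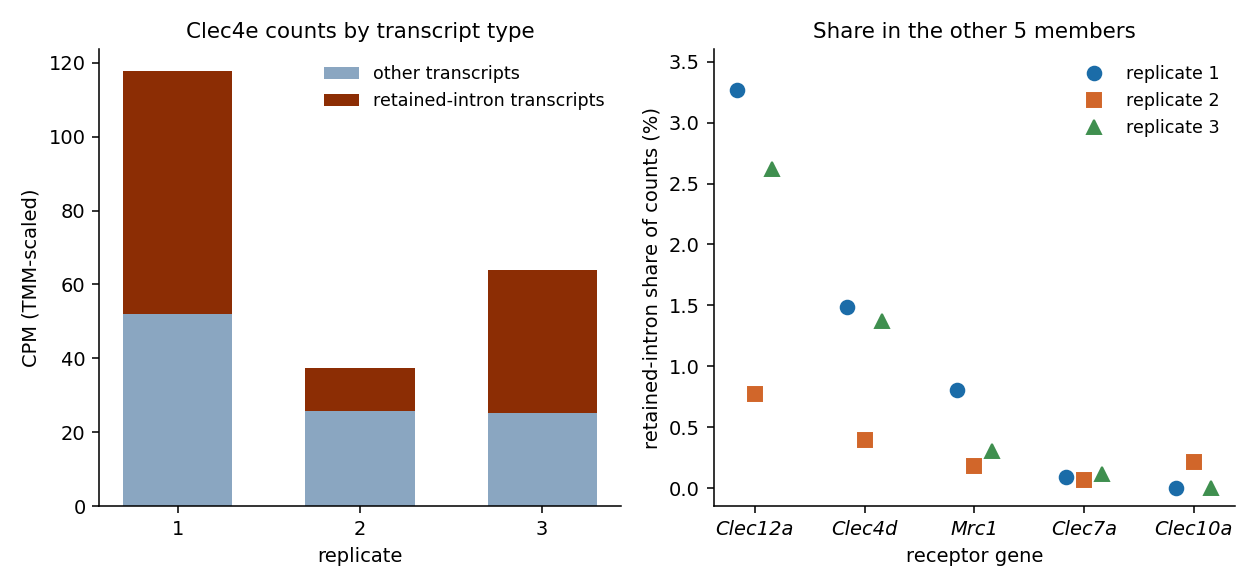
Left, Clec4e counts (TMM-scaled CPM) in each library on retained-intron transcripts and on its other transcripts, stacked from 0. Right, share of counts on retained-intron transcripts in the other 5 members that have one, by library; the Clec4e share falls to 31.3% in replicate 2 and all other shares stay at 3.27% or less.

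Clec7a, the dectin-1 gene, was divided about evenly among 3 transcripts. The short form Clec7a-202, which lacks the exon of 135 bases that encodes the stalk (chr6:129468869-129469003 in Clec7a-204), held 29.5%, 36.9% and 33.3% of the gene's TPM. Its reading frame has 199 codons, against 244 in Clec7a-201. Clec7a-201 held 41.1%, 30.6% and 33.0%, and Clec7a-204 29.1%, 32.3% and 33.3%. The second table gave 31.9 ± 2.88% for Clec7a-202.

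Clec7a-201 and Clec7a-204 are nearly the same sequence. Over their 2272 shared bases they differ in 8 bases, all within the first 9 capitals of the lines printed for them, and Clec7a-201 has 5 more bases at its start. The annotation calls Clec7a-204 a polymorphic pseudogene transcript, and its reading frame stops after 70 codons. Clec7a-202 is annotated with only 15 bases after its stop codon and the long forms with 1450, so reads from a longer end of the short form would be counted on the long ones. The division among the 3 is uncertain for these reasons, and the gene's TPM, which uses the length of each transcript, depends on it in part.

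In Clec4d, the nonsense-mediated decay transcript Clec4d-203 held 18.3%, 22.4% and 21.3% of the gene's TPM. It lacks the first 77 bases of exon 4 (chr6:123267992-123268068), and its frame stops after 79 codons in place of 219. The full-length Clec4d-201 held 77.8%, 76.5% and 75.1%. Shares were stable over the libraries, but the second table gave 64.5 ± 3.99% for Clec4d-201, outside their spread.

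In Clec4n, Clec4n-202 leaves out exon 3 (chr6:123232093-123232194, 102 bases) and stays in frame, with 175 codons against 209. It held 28.0%, 28.4% and 29.8% of the gene's TPM, and Clec4n-201 held 69.4%, 66.8% and 68.3%. These were among the most even shares of the members, and the second table gave 25.3 ± 1.05% for Clec4n-202.

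Most of the low Clec5a signal was assigned to a transcript without a full reading frame. Clec5a-201, a processed transcript that lacks exons 3 and 4 (chr6:40582235-40582294 and chr6:40581800-40581936), held 59.0%, 68.8% and 59.0% of the gene's TPM. Its frame stops after 26 codons. The coding transcripts Clec5a-203, with 190 codons, and Clec5a-202, with 165, held 23.8 ± 1.70% and 13.6 ± 4.80%. The second table gave 60.3 ± 6.23% for Clec5a-201. Clec5a-203 is annotated with only 116 bases after its stop codon. After the same position Clec5a-201 has 1249 bases and Clec5a-202 has 3072. Reads from a longer end of Clec5a-203 would be counted on the others, so this division is uncertain too.

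The transcripts of Clec4a3 and Clec10a differ little in coding capacity. The Clec4a3 transcript of 1300 bases held 57.5%, 60.3% and 50.4% and that of 1165 bases 41.8%, 38.2% and 49.6%, both with 237 codons. Clec10a-202 (304 codons) held 50.1%, 47.7% and 52.4% and Clec10a-201 (305 codons) 48.3%, 50.0% and 42.2%. The remaining genes were each dominated by 1 transcript. Clec12a-201 held 97.3 ± 0.995% and the Mrc1 transcript of 5374 bases 98.8 ± 0.901%, and Clec4a1 has 1 annotated transcript.

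**Figure D5:**
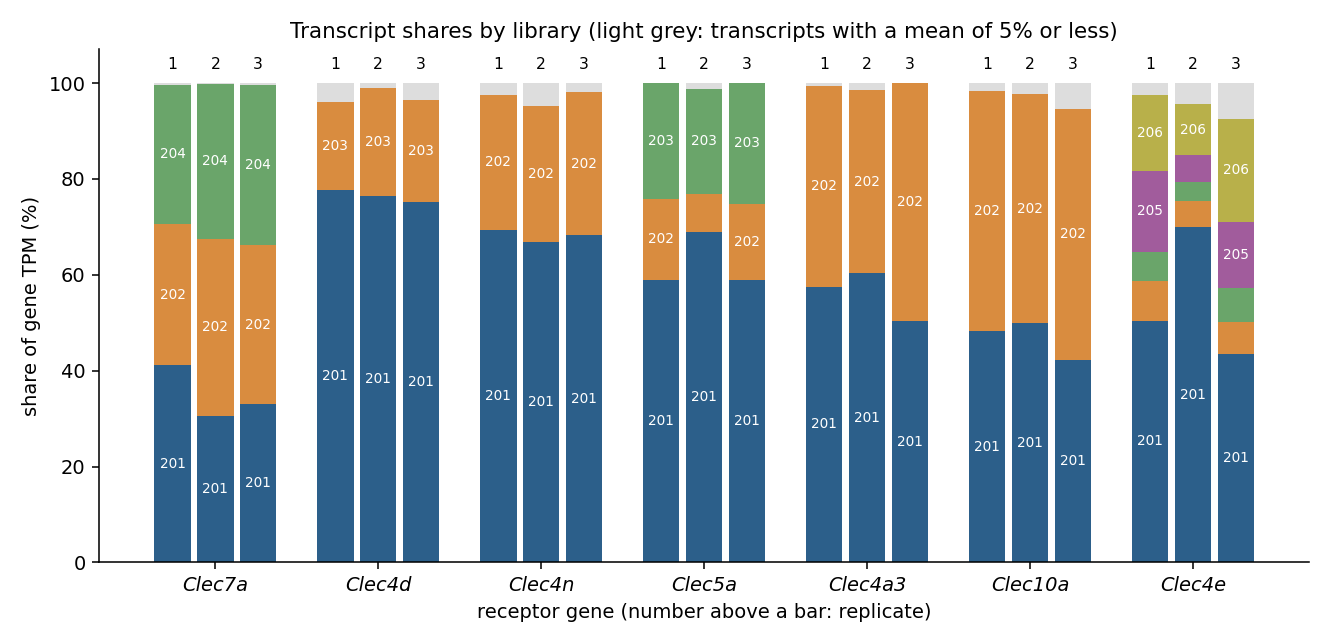
Share of gene TPM (percent) held by each transcript in replicates 1, 2 and 3, as bars stacked from 0 for 7 members; numbers in the bars are transcript numbers. Clec7a is split among 3 transcripts, Clec5a is mostly Clec5a-201, and the share of Clec4e-201 is highest in replicate 2.

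Sequence shared with other genes could affect 1 member in particular. Words of 31 bases were compared for 1 transcript of each member, which for Clec4e was the spliced Clec4e-201 and for Clec5a the coding Clec5a-202. Of those of Clec10a-201, 25.4% also occur in transcripts of its neighbour Mgl2, which had 0.473 ± 0.0551 TPM. The split of reads between these genes is uncertain over that stretch. For Clec4n the share was 2.50%, for Clec4a3 2.28% and for Clec7a 0.757%, and the transcripts of the other 6 shared no word with another gene. Among these 10 transcripts, none shared a word with another member. Of annotated genes, only Mir511, inside Mrc1, overlapped a member, and it had 0 counts. The second transcript table, another estimate from the same reads, differed from the gene table by -0.08 to 0.26 on the log2 scale, both taken relative to nuclear protein-coding TPM. The largest difference was that of Clec4e, and the central 90% of the 3963 nuclear protein-coding genes at 10 TPM or more ran from -0.18 to 0.31.

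Genes of the signalling pathway used by the activating receptors were present throughout. Of 25 listed genes, 24 had at least 1 TPM and 16 at least 10 TPM. The adaptor genes were highest, Tyrobp with 752, 1050 and 729 TPM (844 ± 179) and Fcer1g with 554, 710 and 434 TPM (566 ± 138). Both stood above all 10 receptor genes in every library. Syk, the kinase, had 75.0 ± 14.9 TPM, and the Src-family kinase gene Fgr was lowest at 0.273 ± 0.114 TPM. Of the 25 genes, 21 passed the between-library test, beside 66.8% of all genes tested and 84.8% of those with at least 817 counts.

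Of the genes that oppose this signalling, 9 were measured; all had at least 1 TPM and 8 of them at least 10 TPM. Csk, a kinase that restrains Src-family kinases, had 52.4 ± 13.0 TPM. The phosphatase genes Inpp5d (SHIP1) and Ptpn6 (SHP-1) had 51.1 ± 15.7 and 46.9 ± 15.5 TPM. Ubash3b was lowest, at 3.14 ± 0.539 TPM. The between-library test was passed by 8 of the 9, beside 66.8% of all genes tested and 84.8% of those with at least 817 counts.

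Of 33 other genes of lectin-like receptors, 10 had at least 1 TPM and 4 at least 10 TPM. Cd93, whose libraries overlapped those of Clec4n, had 82.4 ± 16.5 TPM, Clec2d, the gene of a ligand for an NK cell receptor, 56.5 ± 5.09 TPM, Cd72 18.1 ± 2.71 TPM and Clec4a2 13.5 TPM. The other 6 were Cd302 at 6.74, Colec12 at 4.89, Cd69 at 4.12, Thbd at 3.45, Clec2i at 1.56 and Clec4b1 at 1.44 TPM. Genes with 0 counts in every library numbered 7: Clec4f, Clec4g, Clec14a, Cd209b, Cd209e, Cd209f and Cd209g. A count of 0 allows up to 3 counts, or 0.128, 0.0595 and 0.0838 CPM in replicates 1, 2 and 3, for counting error only. Of the 19 genes with enough counts, 11 passed the between-library test, beside 66.8% of all genes tested.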

How the data were processed

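Cytosolic RNA without ribosomal RNA was sequenced in 3 libraries; the input was 1 µg and the fragment size 250 to 400 nt, per the labels. The files use mm10 and GENCODE M21, per the deposited readme files; for the aligner, quantifiers, versions and use of strand the entry is: not given in the sources used here. The deposited expected counts are the authors' estimates per gene or transcript, not normalized, in the layout of RSEM, with a second transcript table of estimated counts in the layout of kallisto. The deposited TPM values divide by effective length and sum to the same total in each library. A deposited percent column holds the part of a gene's TPM found on each transcript. The deposited TPM bounds (unit signal) were read but support no printed value.

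Of 81881 gene rows, 55536 matched the annotation; the other rows held 0.462%, 0.109% and 0.0969% of counts and were left out. Nuclear protein-coding genes include the polymorphic pseudogene type, which holds Clec7a. Counts were rounded to whole numbers. TMM factors were computed on genes averaging at least 10 counts with edgeR 4.0.16 (R 4.3.3), as were biological coefficients of variation from an intercept-only design; CPM deviations used a prior count of 0.5. DESeq2 1.42.0 gave alternative size factors. The between-library test compares counts with Poisson sampling at a mean count of 10 or more, adjusted at 0.05. It was run on simulated Poisson counts, which follow its own assumption and so cannot show how it behaves on these reads. Tables, tests and plots were made with scipy 1.17.1, pandas 2.3.3, matplotlib 3.10.9 and numpy 2.4.6 under Python 3.11.15. With 1 group, no differential expression was tested. Without molecular identifiers, reads can be copies of 1 molecule, so intervals cover counting error only, smallest in the deepest library, replicate 2.

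The members and lists were chosen with earlier results of these data known. Named are all members, the 3 highest genes of each list, the lowest of both signalling lists and lectin genes at 1 TPM or more; other names, such as neighbours of members, markers at 0, Mgl2, Malat1 and Neat1, were chosen after their values were seen. Of 10 inhibitory signalling symbols, 9 matched. Alternatives were other scalings, pseudocounts, thresholds and filters, the second transcript table and leaving out each library; those chosen after seeing the data were Clec4e without retained-intron transcripts, its share in TPM, and the comparison with genes of at least 817 counts.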

Additional observations from a re-analysis of the deposited data

How the results depend on the processing

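Of 276 values recomputed under alternatives, 235 were labelled unchanged. For differences and tests this meant the same direction or side of the threshold. For levels and shares it meant a move within the spread between libraries. Leaving out 1 of 3 libraries cannot move a mean level or share beyond that spread, so those values are no check. Counts were labelled unchanged when within 1.5-fold, as with 7 members at 10 TPM in place of 9. In CPM, which does not divide by length, 4 of the 9 neighbours in order kept their sign in every library, and the differences of Clec4d and Clec7a (-0.48), Clec7a and Mrc1 (-1.18), Clec4n and Clec12a (-0.47) and Clec4a3 and Clec4a1 (-0.32) were reversed. Leaving out 1 library reversed Clec12a and Clec4a3 (from -0.0726 without replicate 3 to 0.142 without replicate 1; -0.01 without replicate 2) and Clec4e and Clec10a (from -0.0798 without replicate 1 to 0.471 without replicate 2). In the second transcript table, where TPM of messenger RNAs are lower, 7 members had 10 TPM or more in place of 9 (Clec4e 7.41 and Clec10a 5.19 TPM), Clec4d as the highest had 89.6 TPM, and 7 genes of the lectin signalling and 4 of the inhibitory list had 10 TPM or more; the deviation of Clec7a in replicate 2 was 0.0295 in place of -0.0279; the cause was not tested. Without a TMM factor Clec12a did not pass the between-library test (adjusted p = 0.106, chi-square test against Poisson sampling). With that setting 73.1% of all genes tested passed. Passing members numbered 10 with DESeq2 size factors (67.7% of all genes tested), with no count filter (45.7%) and in the second table (70.1%). They numbered 8, 8 and 9 without replicates 1, 2 and 3, where 55.3%, 33.1% and 51.2% of all genes tested passed. The retained-intron share of Clec4e ran from 43.6 to 58.2% when 1 library was left out, and was 33.8% as a share of TPM. No paired analysis was possible because the series has 1 group.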
